A study of Oryza sativa with 12 samples.

Results

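The sucrose synthase (SUS) family of rice was followed by RNA-Seq in roots of the super-hybrid Xieyou 9308 and its parents. Its members were taken by locus identifier, as every annotated transcript of the 7 loci SUS1 to SUS7, without use of any expression value. This gave 15 of the 42081 transcripts and 7 of the 34791 loci in the annotation. There were 3 transcripts of SUS1 (Os03t0401300), 4 of SUS2 (Os06t0194900), 1 of SUS3 (Os07t0616800), 3 of SUS4 (Os03t0340500), 1 of SUS5 (Os04t0309600), 2 of SUS6 (Os02t0831500) and 1 of SUS7 (Os04t0249500). The deposited KEGG annotation called all 15 a sucrose synthase, and the description line did so for 13. The exceptions were the second SUS6 transcript and the SUS7 transcript, which were described by similarity to a protein of another name. The deposited description of SUS1 reads sucrose synthase 2, so the locus identifier is given beside the symbol. All 7 symbols were found in RefSeq's gene table (assembly ASM3414082v1) on the chromosome that the locus identifier gives: SUS6 on chromosome 2, SUS1 and SUS4 on chromosome 3, SUS5 and SUS7 on chromosome 4, SUS2 on chromosome 6 and SUS3 on chromosome 7. 1 further transcript outside the family, Os06t0202750-00, was annotated as similar to sucrose synthase and held 0 to 13 counts per library.

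Sucrose synthase is the cytosolic enzyme that splits sucrose with UDP into UDP-glucose and fructose, in a reaction that can also run in reverse. In sink organs such as the root it shares the entry of imported sucrose into metabolism with the invertases, which split sucrose with water into glucose and fructose. The UDP-glucose it yields feeds cellulose, callose and starch synthesis, and the fructose enters glycolysis after phosphorylation by fructokinase. In rice, SUS1 is known from elongating tissues, SUS2 from most tissues, and SUS3 and SUS4 mainly from the developing grain.

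Libraries came from the F1 hybrid Xieyou 9308, from Xieqingzao B, its maternal parent, and from R9308, its paternal parent, each at the heading and the tillering stage, with 2 libraries for each of the 6 groups. The plants were started in the field and then floated on nutrient solution, and the labels give 2 collected roots per genotype and stage without saying whether they came from separate plants, so p-values measure the spread between these samples. Reads of all genotypes were mapped to the Nipponbare genome. Assigned counts per library lay between 8209696 and 15830233. An exact two-sided permutation test of 2 against 2 libraries cannot give a p below 0.333, so single values were tested only in the fit across all features. Differences were called with edgeR's quasi-likelihood F-test where the Benjamini-Hochberg adjusted p did not exceed 0.05 and the log2 fold change was 1 or more in either direction. Fold changes are log2 values with their standard error (SE).

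Some libraries stood apart in ways that bear on the family. Xieyou 9308 tillering replicate 2 correlated with its partner at r = 0.892 over log2(RPKM + 1) of all transcripts, against 0.925 to 0.976 within the other 5 groups. The leading transcript of a locus changed between the Xieyou 9308 tillering replicates in 22.5% of 3151 well-covered loci with several transcripts, and in 6.76% to 11.5% within the other groups. That library also had 2 of the 5 root marker loci, a nitrate and an ammonium transporter, at 0, whereas all 5 were detected in the other 11 libraries. Summed RPKM of the 5 root markers was 686 to 1792 at heading and 511 to 1082 at tillering, but single markers went opposite ways. The root-specific RCc3 had 6.41 to 132 RPKM at heading and 300 to 972 RPKM at tillering. The silicon transporters Lsi1 (413 to 934 RPKM at heading, 59.6 to 196 at tillering) and Lsi2 (226 to 734 at heading, 24.9 to 79.5 at tillering) and both nitrogen transporters were higher at heading, without overlap. Green-tissue transcripts (chlorophyll-binding proteins and the Rubisco small subunit, 31 in the list) summed to 5724 RPKM in R9308 tillering replicate 1, where 28 were detected, and to between 4.80 and 312 RPKM in the other 11 libraries. The part of these differences in the values below was not tested, and in bulk roots fewer cells of a type and less RNA per cell cannot be told apart.

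SUS1 and SUS2 carried nearly the whole family in every library. Together they made up 97.1% to 98.4% of the summed family RPKM at heading and 97.2% to 99.6% at tillering. RPKM, the read count scaled to transcript length and to the assigned reads of the library, was summed over the transcripts of a locus so that loci could be compared per length. Over the 12 libraries the median was 554 RPKM for SUS2 (range 166 to 868), 468 for SUS1 (83.4 to 3283), 17.5 for SUS4 (5.64 to 28.3), 1.65 for SUS6 (0.310 to 4.76), 0.914 for SUS5 (0.0306 to 2.46), 0.910 for SUS7 (0.0306 to 2.80) and 0.0570 for SUS3 (0 to 0.176). SUS2 and SUS1 at the top, and SUS6, SUS5 and SUS7 below SUS4, had overlapping ranges and cannot be ordered among themselves, whereas SUS4 lay between these blocks in all 12 libraries. The share of all assigned counts that fell on the family was 0.192% to 0.266% at heading and 0.280% to 0.508% at tillering, without overlap.

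**Figure D1:**
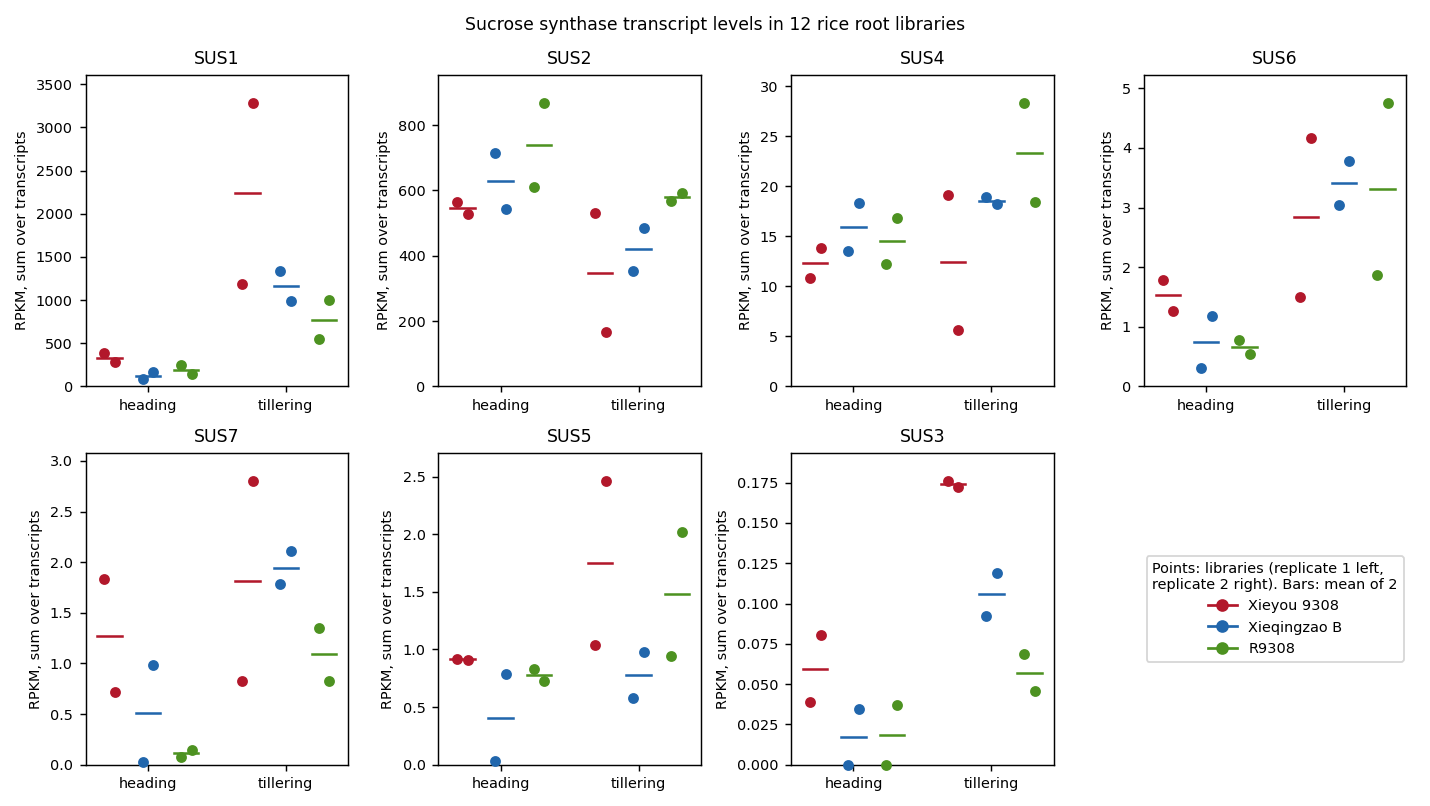
Summed RPKM of each sucrose synthase locus (vertical axes, linear, 1 scale per locus) at heading and tillering. Points are single libraries and bars are the mean of 2. All 6 heading libraries of SUS1 lie between 83.4 and 389 RPKM, below all 6 tillering libraries (546 to 3283 RPKM), and SUS3 stays at or below 0.176 RPKM.

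SUS1 was the member that separated the stages. At heading its summed RPKM was 389 and 280 in Xieyou 9308, 83.4 and 170 in Xieqingzao B, and 244 and 144 in R9308 (replicates 1 and 2). At tillering it was 1189 and 3283 in Xieyou 9308, 1335 and 990 in Xieqingzao B, and 546 and 997 in R9308. Every heading library was below every tillering library, in each genotype and over all 12. Of 24126 loci tested, 5.01% were lower in all 6 heading libraries in this way on counts scaled to the library total (CPM), and SUS1 was the only 1 of the 6 tested family loci that was. The root marker RCc3 was lower in all 6 heading libraries too, by RPKM. The other 4 root markers were higher in all 6, as were 2.13% of all tested loci on CPM. The part of such marker differences in the SUS1 values was not tested. By rank of summed RPKM among all loci, SUS1 stood between places 172 and 1455 at heading and between places 4 and 110 at tillering.

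Counts summed over the SUS1 locus gave a log2 fold change of heading over tillering of -2.01 ± 0.50 (SE) in Xieyou 9308 (Os03t0401300, edgeR quasi-likelihood F-test, adjusted p = 0.046), with mean levels of 903 CPM at heading and 3958 CPM at tillering. In Xieqingzao B the SUS1 locus fell by 3.15 ± 0.52 on the log2 scale (edgeR adjusted p = 0.026), with 336 CPM at heading and 2892 CPM at tillering. In R9308 the value for the locus Os03t0401300 was -1.91 ± 0.50 and did not pass (edgeR adjusted p = 0.061), with 489 CPM at heading and 1936 CPM at tillering. SUS1 was thus the 1 of 6 tested family loci called in Xieyou 9308, where 6.68% of all tested loci were called (15.8% by DESeq2 and 12.6% by edgeR's exact test, each with 1 of 6), and the 1 of 6 called in Xieqingzao B, where 3.61% were, and there DESeq2 (12.3% of all loci) and the exact test (10.6%) called 2 of 6, SUS1 and SUS6. The call at Os03t0401300 in Xieyou 9308 was lost with the replicate number as a block (edgeR adjusted p = 0.071), with a block that exchanges the Xieqingzao B numbers (0.063) and in a fit on the 4 Xieyou 9308 libraries (0.14), while the call in Xieqingzao B held in 7 of 7 such alternatives. In R9308 the edgeR quasi-likelihood F-test called 0 of 6, against 4.16% of all loci, while DESeq2 called 2 (13% of all loci) and edgeR's exact test called 3 (11.2% of all loci). By the F-test 3 of 6 had an unadjusted p under 0.05 there. No share of all loci at that threshold is given, so this count does not show whether the family stands out.

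The stage calls of SUS1 depended on single libraries, since each group had 2. Leaving out 1 of the 12 libraries at a time, the Os03t0401300 log2 fold change of heading over tillering ranged from -2.34 to -1.74 in Xieyou 9308, with the call kept in 5 of 12 fits (edgeR adjusted p 0.023 to 0.29). It ranged from -3.77 to -2.72 in Xieqingzao B, with the call kept in 7 of 12 fits (edgeR adjusted p 0.018 to 0.15), and from -2.32 to -1.31 in R9308, where 2 of 12 fits made a call. The call in Xieyou 9308 was lost without its tillering replicate 2, either of its heading libraries, either Xieqingzao B tillering library or either R9308 heading library. The call in Xieqingzao B was lost without either of its tillering libraries, its heading replicate 1 or either Xieyou 9308 heading library, and the calls in R9308 arose without either Xieyou 9308 tillering library. Without Xieyou 9308 tillering replicate 2, the library with the unusual transcript split, the locus Os03t0401300 gave -1.80 ± 0.55 in Xieyou 9308 (edgeR adjusted p = 0.15). Without R9308 tillering replicate 1, the library with high green-tissue transcripts, it gave -2.32 ± 0.52 in R9308 (edgeR adjusted p = 0.081). The stage difference of SUS1 was not shown to differ between genotypes: the interaction at Os03t0401300 was 1.14 ± 0.68 for Xieyou 9308 over Xieqingzao B (edgeR adjusted p = 0.40) and -0.10 ± 0.68 for Xieyou 9308 over R9308 (edgeR adjusted p = 0.96).

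By RPKM SUS2, the other abundant member, was above SUS1 in every heading library and below it in every tillering library except R9308 replicate 1. At heading SUS2 had 565 and 527 RPKM in Xieyou 9308, 716 and 544 RPKM in Xieqingzao B, and 609 and 868 RPKM in R9308. At tillering it had 531 and 166 RPKM in Xieyou 9308, 353 and 486 RPKM in Xieqingzao B, and 566 and 593 RPKM in R9308. Within each genotype both heading libraries were above both tillering libraries in CPM, as were 24.9% to 31.9% of all loci in the same comparisons. By RPKM the Xieyou 9308 libraries overlapped, with 527 in heading replicate 2 and 531 in tillering replicate 1. The fitted log2 fold changes of the locus Os06t0194900 (0.80 ± 0.51 in Xieyou 9308, 0.60 ± 0.51 in Xieqingzao B and 0.46 ± 0.51 in R9308) did not pass (edgeR adjusted p 0.32, 0.51 and 0.60). Without Xieyou 9308 tillering replicate 1 the value of Os06t0194900 in Xieyou 9308 was 1.98 and was called (edgeR adjusted p = 0.0080), resting on replicate 2, the library with the low SUS2 level.

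Within a library, the ratio of SUS1 to SUS2 needs no scaling between libraries. At heading it was 0.689 and 0.531 in Xieyou 9308, 0.117 and 0.312 in Xieqingzao B, and 0.401 and 0.165 in R9308, so SUS2 led in all 6 libraries. At tillering it was 2.24 and 19.8 in Xieyou 9308, 3.79 and 2.04 in Xieqingzao B, and 0.965 and 1.68 in R9308, so SUS1 led in 5 of 6. The tillering exception was R9308 replicate 1, the library with the high green-tissue sum. The ratio of 19.8 came from Xieyou 9308 replicate 2, in which short SUS1 transcripts took up much of the signal, and on counts rather than RPKM it was 11.6. The ratio of the full-length SUS1 transcript to the SUS2 transcripts Os06t0194900-01 and Os06t0194900-02 together was 0.127 to 0.840 at heading and 1.09 to 10.9 at tillering. This ratio leaves out Os06t0194900-04, which widens the gap. That form took 14.6% to 23.6% of SUS2 counts at heading and 30.8% to 49.2% at tillering. Against all of SUS2, full-length SUS1 had 357 to 565 RPKM in Xieyou 9308 heading replicate 1. In R9308 tillering replicate 1 it had 390 to 566 RPKM, so the stages came close.

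**Figure D2:**
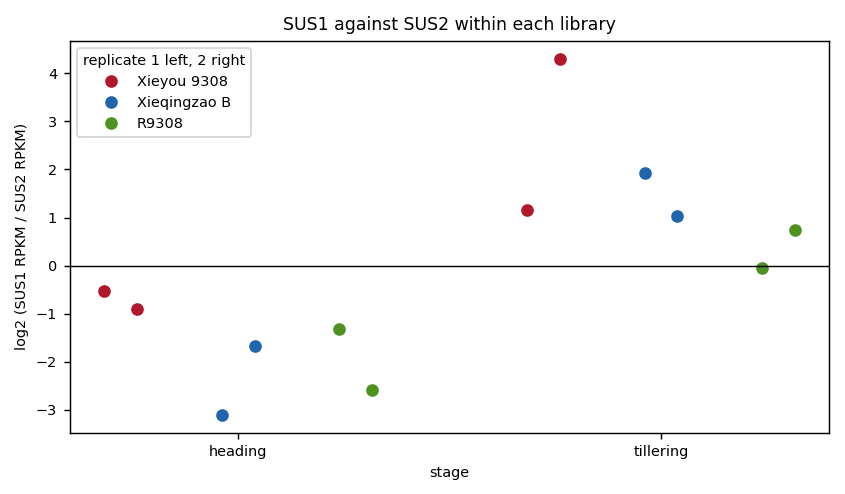
The log2 ratio of SUS1 to SUS2 RPKM in each library (vertical axis), grouped by stage and genotype, with replicate 1 left of replicate 2. Heading libraries run from -3.10 to -0.54 and tillering libraries from -0.052 to 4.31, where 0 means equal levels.

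At the heading stage the hybrid held more SUS1 than any parental library, but the difference stayed short of the threshold in edgeR's quasi-likelihood F-test. In CPM, SUS1 stood at 1074 and 733 in Xieyou 9308, at 218 and 454 in Xieqingzao B, and at 603 and 374 in R9308. Both hybrid libraries were above both Xieqingzao B libraries, as for 3 of 6 tested family loci and 27.4% of all tested loci, with 1 of 6 and 40.4% below. Both were also above both R9308 libraries, as for 4 of 6 and 27.8%, with 1 of 6 and 28.3% below. SUS5 (mean 2.57 CPM, parents 1.67) and SUS6 (4.31, parents 1.98) were above every parental library too, on few counts. So was the untested SUS3, at 0.165 CPM. No share of all loci is given for being above both parents at once. The log2 fold change of the locus Os03t0401300 was 1.57 ± 0.43 for Xieyou 9308 over Xieqingzao B (edgeR adjusted p = 0.051), 0.89 ± 0.42 for Xieyou 9308 over R9308 (edgeR adjusted p = 0.32) and 1.23 ± 0.35 for Xieyou 9308 over the parental mean (edgeR adjusted p = 0.086). Against Xieqingzao B the first of these became a call in 4 of 7 other settings of the analysis of Os03t0401300, among them DESeq2 (adjusted p = 0.0025) and edgeR's exact test (adjusted p = 0.0014), and without Xieqingzao B heading replicate 2 (2.17, edgeR adjusted p = 0.0095). Between the parents, Xieqingzao B over R9308, the SUS1 libraries overlapped, and the value was -0.68 ± 0.42 (Os03t0401300, edgeR adjusted p = 0.31).

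At the tillering stage SUS1 stood at 3276 and 4640 CPM in Xieyou 9308, at 3150 and 2634 CPM in Xieqingzao B, and at 1309 and 2564 CPM in R9308. In CPM both hybrid libraries were above both R9308 libraries, as were 25.2% of all loci, and above both Xieqingzao B libraries, as were 19.6%, but by RPKM its replicate 1 lay below Xieqingzao B replicate 1. The log2 fold changes for Os03t0401300 were 0.44 ± 0.50 over Xieqingzao B (edgeR adjusted p = 0.78), 0.98 ± 0.50 over R9308 (edgeR adjusted p = 0.31) and 0.71 ± 0.42 over the parental mean (edgeR adjusted p = 0.41). The hybrid's higher SUS1 level was thus not called at either stage by edgeR's quasi-likelihood F-test, and neither was its interaction with stage. At heading it was called over Xieqingzao B in 4 of 7 other settings, and over the parental mean in 2 of 6.

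**Figure D3:**
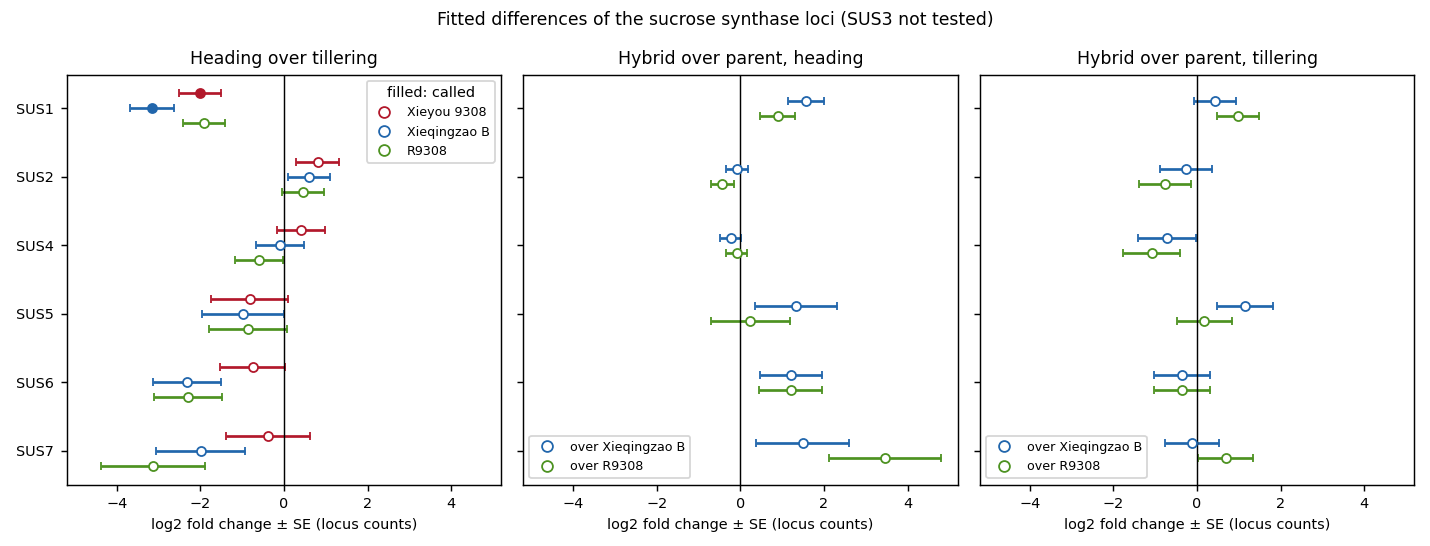
Log2 fold changes with standard errors (horizontal axes) of the 6 tested loci, from edgeR on counts summed per locus: heading over tillering in each genotype (left), and the hybrid over each parent at heading (middle) and tillering (right). Filled points passed the test, which were SUS1 in Xieyou 9308 (-2.01) and in Xieqingzao B (-3.15).

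The annotated transcripts of a locus did not keep fixed shares of its counts. For SUS1, the full-length transcript Os03t0401300-01 (2907 bases) took 89.9% to 96.7% of the locus counts at heading and 50.1% to 97.7% at tillering, with the low value in Xieyou 9308 tillering replicate 2. In that library the shorter Os03t0401300-02 (1279 bases) and Os03t0401300-03 (726 bases) held 14852 and 14221 counts, against 221 and 400 in replicate 1. Without that library the full-length share was at least 85.2% at tillering. The counts of Os03t0401300-01 alone were close between those replicates, at 26277 in replicate 1 and 29235 in replicate 2. By RPKM it was 1101 and 800 in Xieyou 9308, 923 and 849 in Xieqingzao B, and 390 and 818 in R9308 at tillering. At heading Os03t0401300-01 had 357 and 237 RPKM in Xieyou 9308, 70.5 and 149 RPKM in Xieqingzao B, and 187 and 120 RPKM in R9308, so every heading library was below every tillering library. Of 29560 tested transcripts, 4.24% were lower in all 6 heading libraries by RPKM, and of the 13 tested family transcripts 2 were, Os03t0401300-01 and Os03t0401300-03. Its log2 fold change of heading over tillering was -1.56 ± 0.53 in Xieyou 9308, -3.06 ± 0.56 in Xieqingzao B and -1.91 ± 0.54 in R9308, and none passed (Os03t0401300-01, edgeR adjusted p 0.12, 0.060 and 0.11).

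The shares of SUS2 counts assigned to 2 of its transcripts differed between the stages in every genotype. Reads shared by transcripts of a locus were split by estimate, and no test of the shares was run. Os06t0194900-04 (2132 bases), shorter than the main form, took 14.6% to 23.6% of the SUS2 counts at heading and 30.8% to 49.2% at tillering. Os06t0194900-02 (2701 bases), the main form, took 62.1% to 72.9% at heading and 6.85% to 56.9% at tillering. Neither range overlapped between the stages, and without Xieyou 9308 tillering replicate 2 the tillering ranges were 30.8% to 38.8% for Os06t0194900-04 and 43.6% to 56.9% for Os06t0194900-02. Among 11635 transcripts of loci with several transcripts, 0.98% had shares that did not overlap between the 6 heading and the 6 tillering libraries, and in the SUS family 2 of 12 did, both of SUS2. They are not independent, since both are shares of the same counts. In RPKM, Os06t0194900-02 had 340 and 323 in Xieyou 9308, 426 and 363 in Xieqingzao B, and 361 and 607 in R9308 at heading. At tillering it had 217 and 10.2 in Xieyou 9308, 148 and 195 in Xieqingzao B, and 271 and 313 in R9308, all below the heading values. It was the 1 of 13 tested family transcripts that was higher in all 6 heading libraries by RPKM, as were 1.95% of all tested transcripts. Os06t0194900-04 lay between 97.1 and 183 RPKM at heading and between 92.6 and 238 RPKM at tillering, so the levels of this form overlapped. Os06t0194900-02 did not pass in any genotype (log2 fold changes of heading over tillering 1.62 in Xieyou 9308, 1.15 in Xieqingzao B and 0.79 in R9308, with standard errors of 0.997 to 1.02, edgeR adjusted p 0.35, 0.57 and 0.70). The remaining forms were Os06t0194900-01 (2780 bases), at 60.9 to 130 RPKM over the 12 libraries, and Os06t0194900-03 (3388 bases), at 0.258 to 3.32 RPKM.

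SUS4, next in level after SUS2 and SUS1, passed the test in no comparison as a locus, while the split between its transcripts differed from library to library. The locus had 10.8 and 13.9 RPKM in Xieyou 9308, 13.6 and 18.4 in Xieqingzao B, and 12.2 and 16.8 in R9308 at heading. At tillering it had 19.1 and 5.64 RPKM in Xieyou 9308, 18.9 and 18.3 in Xieqingzao B, and 28.3 and 18.4 in R9308. The low value was Xieyou 9308 replicate 2 and the high one R9308 replicate 1, the libraries that stood apart. Without Xieyou 9308 tillering replicate 1, which leaves the low library alone, the stage difference of Os03t0340500 in Xieyou 9308 was called (1.99, edgeR adjusted p = 0.0069), as was its interaction over R9308 (2.58) and over Xieqingzao B (2.08). The transcripts Os03t0340500-01 (2762 bases) and Os03t0340500-02 (2715 bases) are nearly equal in length, and one or the other was often at 0. Counts of Os03t0340500-01 were 0 and 145 in Xieyou 9308, 0 and 0 in Xieqingzao B, and 76 and 142 in R9308 at heading, and 0 and 40 in Xieyou 9308, 48 and 0 in Xieqingzao B, and 146 and 134 in R9308 at tillering. Counts of Os03t0340500-02 were 249 and 64 in Xieyou 9308, 378 and 337 in Xieqingzao B, and 73 and 166 in R9308 at heading, and 226 and 0 in Xieyou 9308, 294 and 271 in Xieqingzao B, and 305 and 386 in R9308 at tillering. R9308 was the only genotype in which both forms were present in all 4 libraries. With each count of 0 set to 3, Os03t0340500-01 was 42.1-fold lower in Xieqingzao B than in R9308 at heading. This is not a lower bound, since reads were split by estimate between these forms of nearly equal length. Os03t0340500-02 held 378 and 337 counts in the same Xieqingzao B libraries. The difference of Os03t0340500-01 was not called by edgeR's quasi-likelihood F-test (adjusted p = 0.14) but was by edgeR's exact test (adjusted p = 0.00034). The locus Os03t0340500 itself had log2 fold changes between -0.23 and 0.14 in the 3 heading comparisons of genotypes (edgeR adjusted p 0.54 to 0.89), with standard errors of 0.25.

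**Figure D4:**
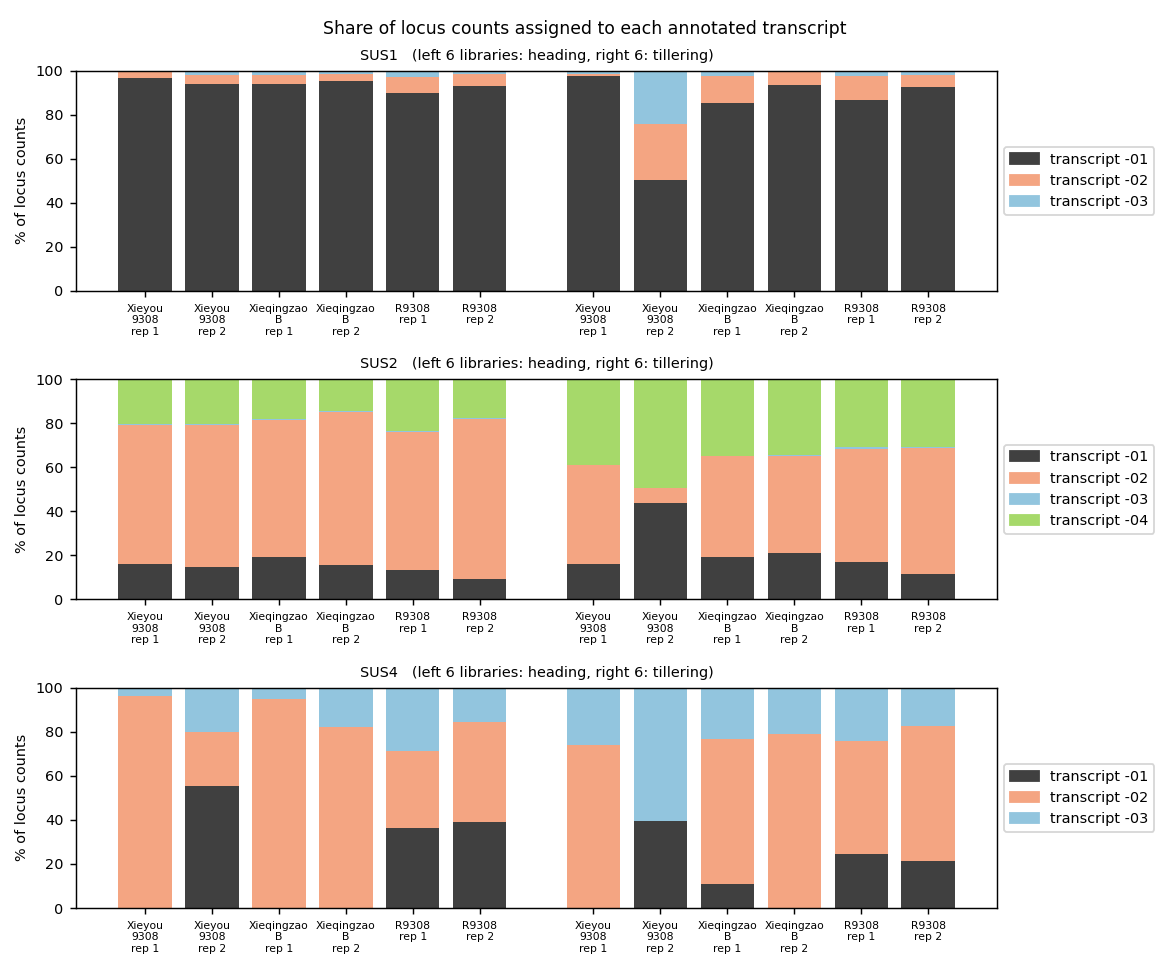
Share of the counts of SUS1, SUS2 and SUS4 (vertical axes, percent) assigned to each annotated transcript, with 1 bar per library. Transcript -04 of SUS2 takes 14.6% to 23.6% at heading and 30.8% to 49.2% at tillering, transcript -01 of SUS1 drops to 50.1% in Xieyou 9308 tillering replicate 2, and transcript -01 of SUS4 is absent from 5 of the 12 bars.

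SUS6, SUS7 and SUS5 were present at low levels, so their counts limited each comparison. SUS6 had 47 and 32 counts in Xieyou 9308, 7 and 37 in Xieqingzao B, and 19 and 16 in R9308 at heading, and 32 and 150 in Xieyou 9308, 102 and 102 in Xieqingzao B, and 58 and 220 in R9308 at tillering. In CPM both heading libraries of SUS6 were below both tillering libraries in Xieqingzao B, as were 3 of 6 family loci and 26.5% of all loci, and in R9308, as were 5 of 6 family loci and 36.7% of all loci. There the log2 fold changes of heading over tillering were -2.31 ± 0.81 and -2.30 ± 0.82 and did not pass (Os02t0831500, edgeR adjusted p 0.13 and 0.12). DESeq2 and edgeR's exact test called both, with adjusted p between 0.037 and 0.041 at Os02t0831500. In Xieyou 9308 the libraries overlapped and the value was -0.75 ± 0.77 (Os02t0831500, edgeR adjusted p = 0.54).

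SUS7 had 48 and 18 counts in Xieyou 9308, 1 and 29 in Xieqingzao B, and 2 and 4 in R9308 at heading. At tillering it had 19 and 99 counts in Xieyou 9308, 59 and 54 in Xieqingzao B, and 40 and 37 in R9308. With so few counts in R9308 at heading, the fitted values were wide: 3.45 ± 1.34 for Xieyou 9308 over R9308 at heading (Os04t0249500, edgeR adjusted p = 0.24) and -3.14 ± 1.24 for heading over tillering in R9308 (Os04t0249500, edgeR adjusted p = 0.15). Neither passed, but without Xieqingzao B heading replicate 1 or replicate 2 the hybrid over R9308 at heading did (3.45 in both, edgeR adjusted p 0.035 and 0.039 at Os04t0249500). SUS5 had 24 and 23 counts in Xieyou 9308, 1 and 23 in Xieqingzao B, and 21 and 20 in R9308 at heading, and 24 and 87 in Xieyou 9308, 19 and 25 in Xieqingzao B, and 28 and 90 in R9308 at tillering. Its log2 fold changes at Os04t0309600 were between -1.10 and 1.33 in all comparisons, with none called. In Xieqingzao B heading replicate 1 these 3 loci held 1, 7 and 1 counts (SUS5, SUS6 and SUS7), against 23, 37 and 29 in replicate 2. With replicate 2 left out, the log2 fold changes of the hybrid over Xieqingzao B at heading were 4.82 at Os04t0309600, 2.94 at Os02t0831500 and 5.30 at Os04t0249500. Each rests on that single library of few counts.

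SUS3, known like SUS4 mainly from the developing grain, was close to the limit of detection. It held 1 and 2 counts in Xieyou 9308, 0 and 1 in Xieqingzao B, and 0 and 1 in R9308 at heading, and 4 and 6 in Xieyou 9308, 3 and 3 in Xieqingzao B, and 2 and 2 in R9308 at tillering. It was not tested, as it did not pass edgeR's filter on low counts, and the same filter removed Os02t0831500-02 of SUS6 (0 to 7 counts per library). This left 13 of 15 transcripts and 6 of 7 loci, and a count of 0 allows up to 3 counts in that library.

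Transcript by transcript, edgeR's quasi-likelihood F-test called 0 of the 13 in every comparison. At heading it called 0.886% of all 27187 tested transcripts for Xieyou 9308 over R9308, 8.1% over Xieqingzao B, 2.21% over the parental mean, and 10.8% for Xieqingzao B over R9308. At tillering it called 0.0106%, 0% and 0% of 28434 for the hybrid in the same order, and 0.0246% between the parents. For heading over tillering it called 1.68% of 29560 in Xieyou 9308, 0.088% in Xieqingzao B and 1.2% in R9308, and 0% in both interactions. Few transcripts of any kind were called at tillering.

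At an unadjusted p under 0.05, the 13 transcripts had 3 for Xieyou 9308 over Xieqingzao B, 2 for Xieqingzao B over R9308, 1 for the hybrid over the parental mean and 0 over R9308 at heading. At tillering the hybrid over the parental mean had 1 and the other comparisons of genotypes had 0. The stage comparisons had 3 in Xieyou 9308, 4 in Xieqingzao B and 3 in R9308, all lower at heading, and the interactions had 0. Here and for locus sums, no share of all features at an unadjusted p under 0.05 is given. Such counts therefore do not show whether the family stands out. DESeq2 called 3, 3 and 1 of the 13 in these stage comparisons (13.3%, 9.41% and 9.87% of all transcripts), and edgeR's exact test called 2, 3 and 1 (6.57%, 5.72% and 5.7%), all of SUS1. For the hybrid over Xieqingzao B at heading, DESeq2 called 2 of SUS1 (14.1% of all), and edgeR's exact test called these and Os03t0340500-01 of SUS4 (13.1%). For Xieqingzao B over R9308 at heading, DESeq2 called 1 (15.3%) and the exact test 2 (14.7%). For the hybrid over R9308 they called 0 at heading (5.15% and 4.52%) and 1 at tillering (8.82% and 4.26%), a short SUS1 form that was high in Xieyou 9308 tillering replicate 2. DESeq2 called 1 for the hybrid over the parental mean at heading (7.65%) and 1 at tillering (5.75%), and 0 in the interactions (5.61% over R9308 and 4.93% over Xieqingzao B). Both tests called 0 at tillering for the hybrid over Xieqingzao B (2.93% and 1.53%) and between the parents (4.41% and 3.78%). The median log2 fold change of the 13 for heading over tillering was -0.36 in Xieyou 9308, -0.99 in Xieqingzao B and -0.87 in R9308, beside -0.0097, 0 and -0.086 over all tested transcripts. For the hybrid at heading it was 1.11 over Xieqingzao B and -0.048 over R9308, beside -0.029 and 0.0013 over all tested transcripts.

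The counts of called loci for genotype comparisons are read beside the same background, whereas counts at an unadjusted p under 0.05 have no such share beside them. On locus sums edgeR's quasi-likelihood F-test called 0 of 6 family loci for Xieyou 9308 over Xieqingzao B at heading (14.5% of all loci), with 1 of 6 at an unadjusted p under 0.05, while DESeq2 (16.8%) and edgeR's exact test (19.5%) called 1. For the hybrid over R9308 at heading it called 0 of 6 (2.68%), with 1 of 6 at an unadjusted p under 0.05, and DESeq2 (6.26%) and the exact test (7.54%) called 0 as well, with 2 of 6 each at an unadjusted p under 0.05. Over the parental mean at heading it called 0 of 6 (6.01%), with 2 of 6 at an unadjusted p under 0.05, and DESeq2 called 1 (9.17%). Between the parents at heading it called 0 of 6 (15.5% of all loci), with 0 at an unadjusted p under 0.05, and so did DESeq2 (17.4%) and the exact test (19.7%). At tillering it called 0 of 6 in each comparison, with 0 at an unadjusted p under 0.05 and 0 by DESeq2, beside 0.0429%, 0% and 0.0129% of all loci for the hybrid over R9308, Xieqingzao B and the parental mean, and 0.49% between the parents. DESeq2 called 10.1%, 3.01% and 5.69% of all loci for the hybrid in that order and 5.26% between the parents, and edgeR's exact test, which also called 0 of 6, called 7.62% and 2.33% for the hybrid over R9308 and Xieqingzao B and 5.44% between the parents. In the interactions all family loci were uncalled by edgeR's quasi-likelihood F-test (0% of all loci over R9308 and 0.0207% over Xieqingzao B) and by DESeq2 (6.5% and 6.4%), with 0 at an unadjusted p under 0.05.

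The transcripts whose pattern over the 12 libraries was most like that of full-length SUS1 were found among 16680 transcripts of other loci with a mean of at least 5 RPKM. By Pearson's r of log2(RPKM + 1), the nearest to Os03t0401300-01 were Os01t0744000-01, similar to a kinesin heavy chain (0.984), Os08t0405700-01, similar to a copper chaperone (0.981), and Os06t0554300-01, a conserved hypothetical protein (0.974). Of these 3, 3 remained with a pseudocount of 0.1 and 1 on RPKM itself. Nearest to the main SUS2 form Os06t0194900-02 were Os05t0594100-01, similar to GDA2 (0.983), Os02t0593700-01, similar to TA4 (0.982), and Os01t0960400-01, a protein kinase (0.982), of which 3 remained with a pseudocount of 0.1 and 0 on RPKM. These are descriptions over 12 libraries that fall into 2 stages and share the depth of each library.

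Among the other genes of sucrose use, a list by description held 70 transcripts of 59 loci: invertases, UDP-glucose pyrophosphorylases, fructokinases, hexokinases, sucrose phosphate synthases, sucrose phosphatases and sucrose transporters. The most abundant of each class by mean RPKM over the 12 libraries were the neutral invertase Os02t0550600-01 (221), the fructokinase Os08t0113100-01 (195), the UDP-glucose pyrophosphorylase Os09t0553200-01 (173), the sucrose phosphate synthase Os06t0643800-01 (49.4), the hexokinase Os05t0522500-01 (45.3) and the sucrose transporter Os12t0641400-01 (41.0). The 2 leading sucrose phosphatases were close by this mean, Os05t0144900-01 (19.1) and Os02t0143100-01 (17.3), and the mean of Os05t0144900-01 was carried by the R9308 tillering libraries. At heading, 2 of 54 tested members were called for Xieyou 9308 over Xieqingzao B, both higher, beside 8.1% of all transcripts, and 4 of 54 for Xieqingzao B over R9308, all lower, beside 10.8%. For heading over tillering in R9308, 1 of 56 was called, lower, beside 1.2%. The other 10 comparisons had 0 calls by edgeR's quasi-likelihood F-test. They had 2 to 20 members at an unadjusted p under 0.05, without a share of all transcripts to set beside these. The 1 named by rank of expression and called in both heading comparisons was the sucrose transporter Os02t0827200-01, with 56.3 and 49.2 RPKM in Xieyou 9308, 19.7 and 19.2 RPKM in Xieqingzao B, and 44.2 and 44.6 RPKM in R9308. It rose by 1.58 ± 0.17 on the log2 scale in Xieyou 9308 over Xieqingzao B (edgeR adjusted p = 0.012) and fell by 1.32 ± 0.17 in Xieqingzao B over R9308 (edgeR adjusted p = 0.011). Its replicates lay closer together than those of SUS1, which had a standard error of 0.46 for Os03t0401300-01 in the first of these comparisons.

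The called UDP-glucose pyrophosphorylase, invertase and phosphofructokinase are named here after their values were seen. The UDP-glucose pyrophosphorylase Os02t0117700-01, an enzyme that interconverts UDP-glucose and glucose-1-phosphate, had 3.04 and 2.91 RPKM in Xieyou 9308, 0.292 and 0.761 RPKM in Xieqingzao B, and 2.27 and 2.43 RPKM in R9308 at heading. The cell wall invertase Os04t0664800-00 had 1.43 and 3.09 RPKM in Xieqingzao B and 11.6 and 7.33 RPKM in R9308 at heading, and 3.68 and 3.65 RPKM in Xieyou 9308. The fructokinase word in a description also caught 9 phosphofructokinases among 13 transcripts, and the one called, Os02t0714200-01, is the alpha subunit of the pyrophosphate-dependent enzyme, with 0.867 and 0.879 RPKM in Xieqingzao B and 6.48 and 2.44 RPKM in R9308. The sucrose phosphatase Os05t0144900-01, which acts in sucrose synthesis, had 6.56 and 7.02 RPKM at heading and 64.4 and 56.3 RPKM at tillering in R9308, a log2 fold change of -3.08 ± 0.37 (edgeR adjusted p = 0.027).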

How the data were processed

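Poly-A RNA from 12 rice root samples was sequenced as paired-end reads. The authors filtered the reads for quality and used RSEM 1.1.11 to assign them to transcripts of the Nipponbare reference. CASAVA 1.8 is also named in the submitters' processing notes. The deposited values are whole counts per annotated transcript, without normalization, beside the deposited RPKM values, which the authors made from the count, the transcript length and the library sum (largest difference on recomputation 3.36e-06). RSEM splits reads shared by transcripts of a locus by estimate, so a share between near-identical transcripts is less certain than a locus sum, and reads shared between family members were not examined, since no sequences were used here. The deposited fold changes, p-values and FDR are the authors' own genotype comparisons and were not used.

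Libraries were grouped by the labelled genotype and stage. Under R 4.3.3, edgeR 4.0.16 with limma 3.58.1 served for the tests of counts: filterByExpr, TMM and the quasi-likelihood F-test, on 6 libraries per stage for genotypes and on all 12 for stages and interactions, with p-values adjusted over all features. Standard errors are the log2 fold change over the root of its F statistic. Each fit was made on transcripts and on locus sums. DESeq2 1.42.0, edgeR's exact test, scaling by library size alone, no filter, fits on other library sets, a replicate block and leaving out each library were the alternatives. The locus sums under each alternative, the crossed block and the shares without 1 library were chosen after seeing the data. Levels were handled with Python 3.11.15, numpy 2.4.6 and pandas 2.3.3, figures with matplotlib 3.10.9. All transcripts of the 7 loci are named, with the 3 nearest patterns of each transcript with a mean of at least 5 RPKM (those of 2 are given), and from the list of sucrose genes those among the 2 highest of their class or called against both parents. The members and lists were chosen with earlier results of these data known. From the same list the called members of classes outside these rules are given after their values were seen. The fits were tested on simulated data. Same-numbered libraries did not deviate together (r -0.327 to 0.0442), so the numbers were not taken as pairs. The r of -0.327 was that of Xieyou 9308 and Xieqingzao B at tillering. There, libraries of opposite number deviated together in part, and whether libraries shared a batch was not tested. With 2 libraries per group the prior degrees of freedom were 2.54 to 2.61, and counts per library limit precision for loci with few counts.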

Additional observations from a re-analysis of the deposited data

How the results depend on the processing

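No fold change of a member turned a called direction round in any of the 3666 repeats under other settings, of which 3572 stayed on their side of the threshold, 79 passed it newly and 15 no longer passed. Nearly all repeats started from an uncalled result. Among members, edgeR's quasi-likelihood F-test called only the SUS1 locus for the stages, in Xieyou 9308 and in Xieqingzao B. The 15 that no longer passed all belong to these calls. Apart from left-out libraries, SUS1 kept its call in 4 of 7 settings in Xieyou 9308 and in 7 of 7 in Xieqingzao B. Among the 3572, 191 changed sign where no call was made. The largest log2 fold change in the main setting among these was 9.35 in size, so such sign changes were not limited to small values. For transcripts, where edgeR's quasi-likelihood F-test called 0 in each comparison, DESeq2 called 2 for the hybrid over Xieqingzao B at heading, 1 between the parents at heading, 1 for the hybrid over the parental mean at each stage, 1 for the hybrid over R9308 at tillering, and 3, 3 and 1 for the stages in Xieyou 9308, Xieqingzao B and R9308. The edgeR exact test called 3 for the hybrid over Xieqingzao B and 2 between the parents at heading, 1 for the hybrid over R9308 at tillering, and 2, 3 and 1 for the stages. Locus sums gave 1 call for the stages in Xieyou 9308 and 1 in Xieqingzao B. Leaving out single libraries gave between 0 and 5 calls for the stages in Xieyou 9308, 0 and 2 in Xieqingzao B, 0 and 3 for the hybrid over Xieqingzao B at heading, 0 and 1 over the parental mean and between the parents at heading, and 0 and 2 for each interaction.

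For locus sums, the call counts moved to 1 for the hybrid over Xieqingzao B at heading with DESeq2, the exact test and no filter, to 1 over the parental mean with DESeq2, to 2 for the stages in Xieqingzao B with DESeq2 and the exact test, and to 2 (DESeq2), 3 (exact test), 1 (library size alone) and 1 (the 4 libraries of the genotype) in R9308. With the 4 libraries of Xieyou 9308 alone its stage call was lost (0). Leaving out single libraries gave between 0 and 4 calls for the hybrid over Xieqingzao B and over the parental mean at heading, 0 and 2 between the parents, 0 and 1 over R9308, 0 and 3 for the stages in Xieyou 9308, 0 and 1 in Xieqingzao B and in R9308, and 0 and 1 for each interaction. With Xieqingzao B heading replicate 2 left out, the hybrid over Xieqingzao B at heading had larger log2 fold changes at several loci. These were 2.17 for SUS1, 4.82 for SUS5, 2.94 for SUS6 and 5.30 for SUS7, and they rest on the single Xieqingzao B heading library that remains. For fits with a library left out, no share of all features called is given beside the counts. Such counts therefore do not show whether the family stands out. The cause of these shifts was not tested.

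The replicate block took the stage call of SUS1 in Xieyou 9308 (0 of 6 loci called) and changed no other count of called loci or transcripts. With a block that exchanges both replicate numbers in Xieqingzao B, 1 transcript was called for the hybrid over Xieqingzao B at heading, 1 locus in each of that comparison and the hybrid over the parental mean, and 0 for the stages in Xieyou 9308. Depth limited SUS3, SUS5, SUS6 and SUS7, whose libraries held between 0 and 220 counts.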
